A study of Mus musculus with 3 samples.

Results

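Autophagy genes were examined for the binding of ATF4 and CEBPG, a pair of basic leucine zipper (bZIP) transcription factors, in mouse embryonic fibroblasts short of amino acids. The 37 genes were picked by name, with earlier results of these data known, out of 21887 protein-coding genes with a RefSeq position in GRCm38.p6 (mm10). They cover cargo receptors, the ATG8 proteins and their conjugation machinery, the initiation complex, the lipid kinase complex, lipid transfer proteins and the regulator Tfeb. A peak was assigned to a gene when it touched the gene span or the 5 kb on either side. The cells were primary fibroblasts of C57BL/6 embryos taken at E13.5, at passages 3 to 4. They stood for 24 hours in medium and then for 3 hours in medium deprived of amino acids (AAD). Chromatin from such cells was precipitated with an ATF4 antibody (C-20), an antiserum against the CEBPG C-terminus or a GFP antibody, with 1 library each and no replicate. All 3 libraries come from deprived cells, so nothing below compares deprived with fed cells, and the GFP precipitate was not used here. Peak lists carry no expression values, and the fibroblast label could not be checked against marker genes.

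Autophagy delivers cytoplasm to the lysosome inside a double membrane and recovers amino acids when they are scarce. The ULK1 kinase complex starts the process, the PIK3C3 lipid kinase complex marks the membrane, and ATG9A, ATG2 and WIPI proteins supply and organise lipid. An ATG12-ATG5-ATG16L1 complex then attaches ATG8 proteins such as LC3 to the membrane, where receptors such as p62 (Sqstm1) bind them with their cargo. ATF4 is made when amino acids run short and pairs with C/EBP proteins, CEBPG among them, on C/EBP-ATF response elements. Several autophagy genes are known to be induced through ATF4 under amino acid limitation.

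The CEBPG list held 25419 peaks and the ATF4 list 2642, at library depths that are unknown. Each peak carries the authors' score, which begins at 40 in both lists, and 11.7% of CEBPG and 5.11% of ATF4 peaks reach 100. Scores of the 2 lists are not on a shared scale of occupancy and were read only within their own list.

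Of the 37 genes, Sqstm1 alone had an ATF4 peak, and 17 had a CEBPG peak. The background rates were 4.94% of all protein-coding genes for ATF4 and 29.9% for CEBPG, against 2.7% and 45.9% of the autophagy genes. The Sqstm1 ATF4 peak lay on a CEBPG peak, a combination found at 1.13% of all genes. CEBPG peaks of score 100 or more were at 5 of the 37 genes, Sqstm1, Atg10, Atg16l1, Becn1 and Atg14, against 7.24% of all genes. Most of the rest scored low, as did most CEBPG peaks at all protein-coding genes. Of the 36 CEBPG peaks in these windows, 21 scored under 50, 8 scored from 50 to 100 and 7 scored 100 or more. That is 58.3% under 50 and 19.4% at 100 or more, beside 57.9% and 13.9% of CEBPG peaks at all protein-coding genes. The median of the 36 peaks was 47.23, beside 47.83 for the CEBPG peaks at all protein-coding genes. No test was made of any of these shares, since there is 1 library per antibody.

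**Figure D1:**
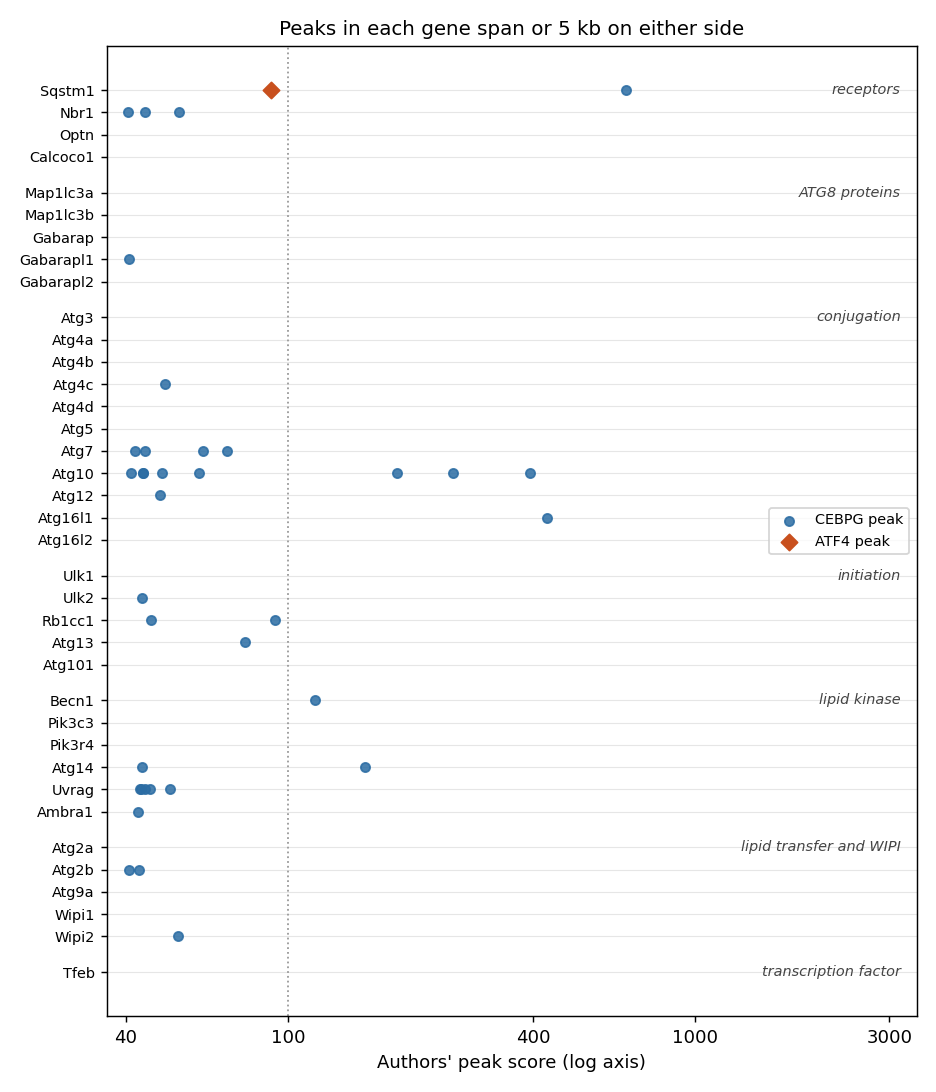
Score of every CEBPG peak (circles) and ATF4 peak (diamond) in the window of each of the 37 genes, on a log axis, with genes ordered by role and a dotted line at score 100. The ATF4 peak at Sqstm1 is the only diamond, 20 genes have no circle, and 7 circles lie to the right of the line.

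Cargo receptors held the strongest site. Sqstm1 encodes p62, which binds ubiquitinated cargo and LC3 and also frees the antioxidant factor NRF2 from KEAP1. Its gene (chr11:50200152-50210820, minus strand) had an ATF4 peak at chr11:50211955-50212267 with a score of 90.93, rank 158 in its list. The CEBPG peak at chr11:50211796-50212334 scored 676.73, rank 478, and contained the whole ATF4 peak. Their centres lay 46 bp apart, 1291 bp (ATF4) and 1245 bp (CEBPG) upstream of the RefSeq start. No other protein-coding gene had either peak in its window. Among all CEBPG peaks scoring from 500 to 1000, 85 of 365 (23.3%) lay on an ATF4 peak, and the Sqstm1 peak was the only one of that class at any of the 37 genes. Nbr1, a receptor built much like p62, had 3 CEBPG peaks with scores of 40.41, 44.69 and 54.15. The first and second of these were inside the gene and the last was 697 bp beyond its far end, in a stretch that also belongs to the window of Tmem106a. Optn, a receptor for damaged mitochondria and bacteria, and Calcoco1, a receptor for the endoplasmic reticulum, had no peak in either list. The nearest CEBPG peak was 30.4 kb from Optn, with a score of 429.76, and 27.5 kb from Calcoco1, with a score of 42.89.

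**Figure D2:**
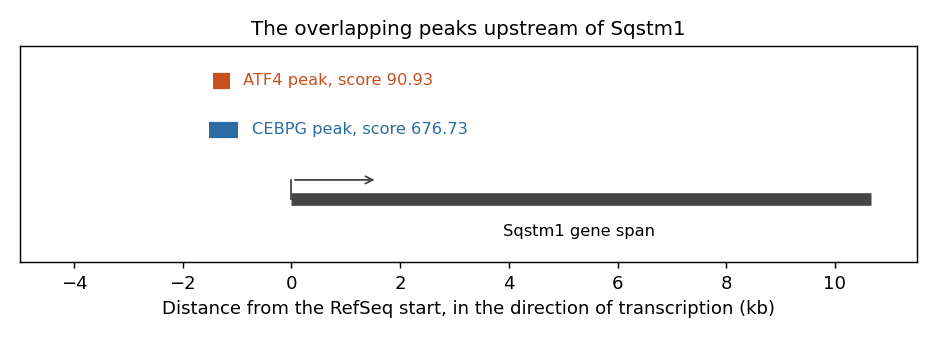
The Sqstm1 gene span (dark bar, arrow in the direction of transcription), the CEBPG peak and the ATF4 peak, to scale in kb from the RefSeq start. Both peaks lie upstream of the start, and the ATF4 peak (score 90.93) falls within the CEBPG peak (score 676.73).

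The pair at Sqstm1 did not touch the promoter window of the gene. RefSeq promoter windows, from 250 bases before to 50 after each listed start (GRCm38.p6), were found for 31 of the 37 genes, all but Map1lc3a, Atg12, Atg16l1, Rb1cc1, Becn1 and Pik3c3. None of these 31 had a CEBPG or ATF4 peak on such a window, as had 1.64% and 0.189% of the 17492 protein-coding genes with a window. At shares this low, 0 of 31 does not set these genes apart. Atg16l1 and Becn1, whose CEBPG peaks (432.77 and 116.47) crossed an end of the span, had no window and could not be counted. At Atg10 and Atg7 a CEBPG peak crossed the end of the span, centred 709 bp and 28.0 kb upstream of the listed start. In both genes the only listed start lies inside the span, so the window does not reach the end that the peak crossed. Their lack of a peak on the window says nothing about that end. For scale, 5 genes of the amino acid response were chosen with earlier results of these data known. ATF4 and CEBPG peaks both touched the window at 4, Asns (asparagine synthetase), Chac1 (a glutathione-degrading enzyme), Trib3 and Psat1. At the other, Shmt2, neither did, and its pair was centred inside the gene, 481 bp (CEBPG) and 512 bp (ATF4) downstream of the start. The first 270 bases of the windows of Asns, Chac1 and Sqstm1 are shown as examples of a start with and without peaks, and that of Atg5 for its motifs. Capitals mark matches, on either strand, to TGATGNAA (the core of a C/EBP-ATF response element), TTGCGCAA (C/EBP), TGACGTCA (the cyclic AMP response element, CRE), TGACTCA (AP-1), TGACNNNGC (the core of an antioxidant response element) and CACGTG (the E-box that TFEB reads). The start is 20 bases from the right end of each line.

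Asns, chr6:7693190-7693459, minus strand: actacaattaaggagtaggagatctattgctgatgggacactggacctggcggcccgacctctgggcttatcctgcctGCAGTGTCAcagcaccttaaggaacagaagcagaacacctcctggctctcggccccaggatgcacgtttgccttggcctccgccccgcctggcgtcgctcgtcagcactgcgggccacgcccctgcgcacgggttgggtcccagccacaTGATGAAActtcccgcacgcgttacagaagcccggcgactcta
Chac1, chr2:119350992-119351261, plus strand: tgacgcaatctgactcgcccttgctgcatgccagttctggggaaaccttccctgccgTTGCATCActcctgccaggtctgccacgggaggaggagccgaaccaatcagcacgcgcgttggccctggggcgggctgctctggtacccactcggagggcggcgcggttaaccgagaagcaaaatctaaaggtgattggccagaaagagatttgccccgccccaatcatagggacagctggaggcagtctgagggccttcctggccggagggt
Sqstm1, chr11:50210801-50211070, minus strand: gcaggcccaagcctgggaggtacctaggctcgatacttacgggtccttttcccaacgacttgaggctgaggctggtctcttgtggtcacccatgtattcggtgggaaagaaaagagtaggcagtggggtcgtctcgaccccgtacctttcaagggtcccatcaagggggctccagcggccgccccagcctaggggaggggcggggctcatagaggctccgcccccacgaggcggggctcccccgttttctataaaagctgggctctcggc
Atg5, chr10:44268089-44268358, plus strand: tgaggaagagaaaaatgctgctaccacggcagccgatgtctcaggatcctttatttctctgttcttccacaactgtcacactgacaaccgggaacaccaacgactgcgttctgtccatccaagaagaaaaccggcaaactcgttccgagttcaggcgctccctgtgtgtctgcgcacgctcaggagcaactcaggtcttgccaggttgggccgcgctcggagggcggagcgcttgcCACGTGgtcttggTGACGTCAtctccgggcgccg

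In the Asns window the capitals mark TGATGAAA from 23 bases before the start and, further upstream, GCAGTGTCA, which matches the antioxidant element core on the opposite strand. In the Chac1 window they mark TTGCATCA, the response element core on the opposite strand, from 193 bases before the start. The Sqstm1 window held none of the 6 motifs. Over all windows, the core TGATGNAA was found for 0 of the 31 autophagy genes and for 4.13% of 17492 genes, and in 3 of the 5 reference genes (Asns, Chac1 and Trib3). Psat1, not shown, had both peaks on a window and none of the 6 motifs, so a peak on a window did not always go with the core. The C/EBP and AP-1 letters were found for 0 of the 31, beside 0.246% and 5.4% of all genes. The CRE letters were found for 2 of the 31, Atg5 and Atg16l2, beside 2.54% of all genes. The E-box was found for 4, Atg3, Atg5, Atg7 and Atg14 (12.9%), beside 8.91%. The antioxidant element core was found for 3, Map1lc3b, Ulk2 and Atg13 (9.68%), beside 14.8%. TGACNNNGC can overlap the AP-1 letters. Sequence under the peaks themselves was not used here, so these matches describe the windows and not the bound sites.

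ATG8 proteins are attached to the membrane and hold receptors there, and 1 of their 5 genes (20%) had a CEBPG peak. All 5 genes are shorter than 15 kb, a class in which 13.0% of all protein-coding genes had one. Of Map1lc3a, Map1lc3b, Gabarap, Gabarapl1 and Gabarapl2, only Gabarapl1 had a CEBPG peak, inside the gene with a score of 40.73. That is rank 23436 of 25419. The nearest ATF4 peak to Gabarapl1 (score 49.93) was 6.97 kb away, just outside the window, and was the closest for any of the 37 genes without an ATF4 peak. Map1lc3b, which encodes LC3B, had its nearest CEBPG peak (score 77.18) 6.46 kb away, also just outside. For Gabarap, Gabarapl2 and Map1lc3a the nearest CEBPG peak was 24.1, 65.4 and 146 kb away, with scores of 41.26, 41.99 and 46.31.

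The conjugation machinery had CEBPG peaks at 5 of 11 genes (45.5%), beside 29.9% of all protein-coding genes. Atg4c, Atg7 and Atg10, with peaks, and Atg4a, without, span 100 kb or more, where 79.0% of all genes had one. The other genes of this group are shorter. The conjugation genes held 4 of the 7 peaks of score 100 or more. Atg16l1, which places the conjugation complex on the membrane, had a CEBPG peak across the lower-coordinate end of its span (chr1:87755616-87756107) with a score of 432.77, rank 773. Atg10, the enzyme that joins ATG12 to ATG5, had 8 CEBPG peaks, more than any other of the 37 genes. The strongest lay across the higher-coordinate end of the span (chr13:91224505-91224888, minus strand), 709 bp upstream of the listed start, and scored 394.07. Inside the gene, peaks at chr13:91166307-91166700 and chr13:90977033-90977390 scored 254.31 and 185.29, and the other 5 scored from 41.08 to 60.47. The Atg10 span is 289 kb, the longest of the 37.

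Atg7, the E1-like enzyme that activates both ATG12 and the ATG8 proteins, had 4 CEBPG peaks. The highest, 70.85, crossed the lower-coordinate end of the gene span, 28.0 kb upstream of the listed start. The others scored 61.97, 44.69 and 42.23 and lay inside the gene, which spans 217 kb. Atg4c, a protease that processes ATG8 proteins, had 1 peak inside the gene (49.81). Atg12, the ubiquitin-like partner of ATG5, had 1 peak (48.46) centred 2062 bp outside its span, and that peak was also in the window of Cdo1, which encodes cysteine dioxygenase. Atg3, Atg4a, Atg4b, Atg4d, Atg5 and Atg16l2 had no CEBPG peak. Their nearest ones lay 7.3 kb (Atg3), 278 kb (Atg4a), 14.2 kb (Atg4b), 92.5 kb (Atg4d), 61.1 kb (Atg5) and 118 kb (Atg16l2) from the gene. An ATF4 peak of score 47.21 lay 35.9 kb from Atg5, closer than its nearest CEBPG peak.

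The initiation complex had CEBPG peaks at 3 of 5 genes (60%), beside 29.9% of all protein-coding genes, and none of these peaks reached 100. Rb1cc1 (61.7 kb) and Ulk2 (79.7 kb), which had peaks, lay in the length class where 52.3% of all genes had one. Atg13 (36.0 kb), with a peak, and Ulk1 (25.6 kb), without, lay in the class with 29.1%. Atg101 (6.65 kb), without a peak, lay in the class with 13.0%. Rb1cc1, the scaffold FIP200, had peaks of 93 and 45.99 inside the gene, the first centred 1987 bp from an end. Atg13, the regulatory subunit, had 1 peak (78.33) inside the gene, 14.2 kb from its start. Ulk2 had 1 of 43.8 inside the gene. Ulk1, the main kinase of the complex, and Atg101, which stabilises ATG13, had none. The nearest CEBPG peaks were 46.7 kb from Ulk1 (44.76) and 17.9 kb from Atg101 (123).

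In the lipid kinase complex, 4 of 6 genes (66.7%) had CEBPG peaks, beside 29.9% of all protein-coding genes. Their median span was 63.6 kb, but the spans were spread over all length classes. Becn1 (14.0 kb) and Atg14 (27.5 kb) lay in classes where 13.0% and 29.1% of all genes had a CEBPG peak. Ambra1 (189 kb) and Uvrag (254 kb) lay in the class of 100 kb or more, where 79.0% had one. Pik3r4 (44.7 kb) and Pik3c3 (82.5 kb), both without a peak, lay in classes with 29.1% and 52.3%. Becn1, the subunit beclin 1, had a peak across the higher-coordinate end of its span (chr11:101302210-101302502) with a score of 116.47. Atg14, which directs the complex to autophagosome formation, had a pair of neighbouring CEBPG peaks inside the gene at chr14:47557869-47558222 (154.62) and chr14:47557737-47557848 (43.8). The stronger was centred 10.4 kb downstream of the start. Uvrag, which takes the place of ATG14 in endosomal complexes, had 5 CEBPG peaks with scores from 43.34 to 51.28 over a span of 254 kb. Ambra1, a regulator that binds beclin 1, had 1 peak (42.89) in 189 kb. Pik3c3, the catalytic subunit, and Pik3r4, its regulatory subunit, had none, and their nearest CEBPG peaks were 25.4 kb (47.92) and 102 kb (49.43) away.

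Among the lipid transfer and WIPI genes, Atg2b, a lipid transfer protein, had CEBPG peaks of 40.63 and 43.16, and the second was also in the window of Gskip. Wipi2, which recruits ATG16L1 to phosphoinositide-marked membrane, had 1 of 53.63, centred 848 bp downstream of the start. Atg2a, Atg9a and Wipi1 had none. Tfeb, the master regulator of lysosomal and autophagy genes, had no peak of either factor, and its nearest CEBPG peak (286.61) was 48.8 kb away. Set side by side, CEBPG peaks were at 2 of 4 receptors, 6 of 16 ATG8 and conjugation genes (37.5%), 3 of 5 initiation genes and 4 of 6 lipid kinase genes (66.7%). The share of all protein-coding genes, of any length, was 29.9%. Peaks of 100 or more were at 1, 2, 0 and 2 genes of these groups. The groups are too small, and the gene lengths too unequal, for these shares to be ranked.

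Gene length moved with the presence of a peak. Longer windows offer more room for a peak, and the part of this in the shares below was not tested. Among protein-coding genes under 15 kb, 13.0% had a CEBPG peak, rising to 29.1% from 15 to 50 kb, 52.3% from 50 to 100 kb and 79.0% at 100 kb or more. The autophagy genes had 4 of 11 (36.4%), 5 of 14 (35.7%), 3 of 6 (50%) and 5 of 6 (83.3%) in the same classes. The share lay above that of all genes mainly among the shortest, where the 4 were Sqstm1, Gabarapl1, Atg12 and Becn1. The median span was 63.6 kb for the lipid kinase genes and 8.32 kb for the ATG8 genes. Per length of window, there were 13.7 CEBPG peaks per Mb at the autophagy genes and 10.4 per Mb at all protein-coding genes. For ATF4 the values were 0.382, from 1 peak, and 0.964. The part of gene length in the order of the role groups was not tested.

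**Figure D3:**
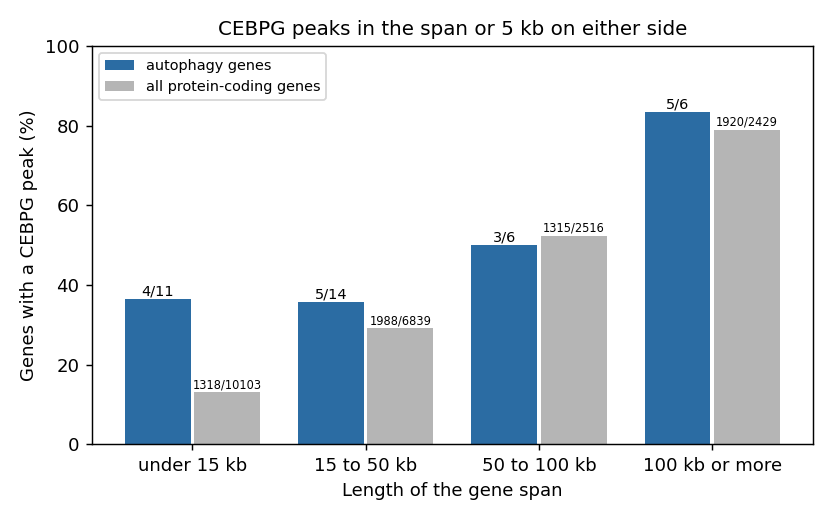
Percentage of genes with a CEBPG peak in the span or 5 kb on either side, for the 37 autophagy genes (blue) and all protein-coding genes (grey) in 4 classes of gene length, with the counts above the bars. The grey bars rise from 13.0% to 79.0%, and the blue bar stands farthest above the grey one in the class under 15 kb (4 of 11).

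CEBPG peaks lay inside the genes about as often as at genes in general, and a few of the stronger ones sat at gene ends. Of the 36 peaks, 29 (80.6%) were centred inside the span, beside 82.2% of the 13259 pairs of a peak and a gene over all protein-coding genes. More than 10 kb from either end were 21 (58.3%), beside 60.2% of those pairs. Gene lengths differ between the sets, and no test was made. Peaks centred within 1 kb of an end were found at 6 of the 37 genes, Nbr1, Atg7, Atg10, Atg16l1, Becn1 and Wipi2, beside 5.16% of all genes. At 4 of the 6 (Atg7, Atg10, Atg16l1 and Becn1) the peak crossed the end itself, with scores of 70.85, 394.07, 432.77 and 116.47. The remaining peaks near an end, at Nbr1 and Wipi2, scored 54.15 and 53.63. The strongest peaks far from an end were in Atg10 and Atg14.

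**Figure D4:**
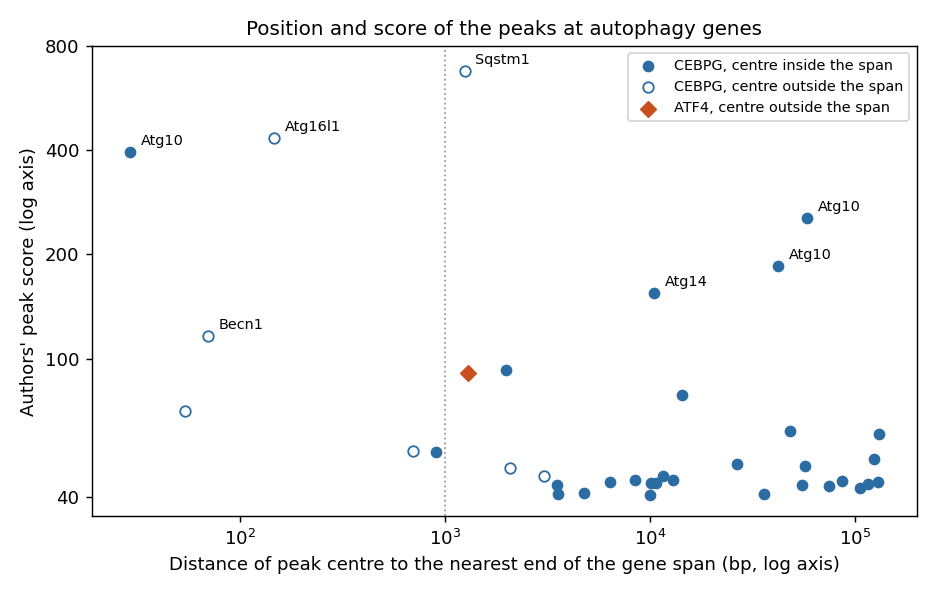
Authors' score of each CEBPG peak (circles, filled where the centre is inside the gene span) and of the ATF4 peak (diamond) against the distance of its centre to the nearest gene end in bp, both on log axes, with a dotted line at 1 kb. Genes with a CEBPG score of 100 or more are named. Atg10, Atg16l1 and Becn1 have such peaks left of the line, Sqstm1 lies just right of it, and most peaks right of it score under 50.

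All CEBPG peaks at the 37 genes but that of Sqstm1 fell in score classes where ATF4 seldom accompanied CEBPG anywhere. Of all CEBPG peaks from 40 to 100, 0.196% lay on an ATF4 peak, and 0 of the 29 autophagy peaks of that class did. From 100 to 200 the share was 1.38%, with 0 of 3 (Becn1, Atg14 and the weakest strong peak of Atg10). From 200 to 500 it was 6.82%, with 0 of 3 (Atg16l1 and a pair in Atg10). At 1000 or more it was 62.5%, and none of the 37 genes had such a peak. The reference genes Asns, Chac1, Trib3, Psat1 and Shmt2 had top CEBPG scores from 1007.02 to 3100, and all 5 had an overlapping ATF4 peak. Since these 5 were chosen with earlier results of these data known, they give a scale only. For the 36 autophagy genes without an ATF4 peak, the nearest was a median of 520 kb from the gene, and 31 were more than 100 kb away.

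Other genes of the pathway, in lists also chosen with earlier results of these data known, were counted the same way. In a list of 25 further autophagy genes (receptors, lipid and fusion factors), 13 (52%) had a CEBPG peak and 1 (4%) an ATF4 peak. Of all protein-coding genes, 29.9% and 4.94% had one. The ATF4 peak lay inside Sh3glb1, which encodes the membrane-bending protein endophilin B1, with a score of 66.79 on a CEBPG peak of 42.59. The highest CEBPG scores were 1099.41 inside Epg5, a tethering factor for fusion with lysosomes, 315.38 inside Vmp1, a lipid scramblase, and 159.24 inside Rubcn, an inhibitor of the lipid kinase complex. Epg5 thus had a higher CEBPG score than any of the 37 genes, with no ATF4 peak on it. Outside the window but near the gene, Trp53inp1 had a CEBPG peak of 950.87 at 8.26 kb and an ATF4 peak of 128.81 at 8.34 kb. Vmp1 had an ATF4 peak of 230.47 at 7.51 kb. In a list of 20 lysosomal genes, 7 (35%) had a CEBPG peak and 1 (5%) an ATF4 peak, beside the same 29.9% and 4.94%. The highest scores there were 230.16 at Mitf, a relative of Tfeb, 86.83 at Atp6v0d1, a proton pump subunit, and 85.23 at Lamp2, a lysosomal membrane protein. The 1 lysosomal gene with an ATF4 peak was Mitf (46.81), and that peak overlapped no CEBPG peak. Median spans were 29.2 kb for the further autophagy genes and 17.6 kb for the lysosomal genes. The part of gene length in their shares was not tested.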

How the data were processed

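ChIP-seq peak lists of 2 libraries were used, per the labels 1 for each antibody. Tools named in the submitters' processing notes are MACS 1.4.2, BWA, Trimmomatic and HOMER, with the build mm10 and no settings. The role of GFP in peak calling is not given in these sources. The deposited files hold positions and a name that ends in the authors' peak score. Its scale is not stated, and no counts were used, so depth and counting error are unknown.

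Positions are 1-based. Genes were matched by symbol to RefSeq GRCm38.p6 (all 37). Spans there carry no strand, and starts and strands came from the RefSeq promoter table. Overlap meant at least 1 bp. Distances run from peak centres, and gaps to the nearest peak from gene span to peak edge. Counting was tested on simulated data with planted peaks. Python 3.11.15 and pandas 2.3.3 were used. With 1 library per antibody, no test was run. Members and lists were chosen with earlier results of these data known. Fully described genes were those with an ATF4 peak or a CEBPG score of 100 or more. Alternatives changed the window, the score minimum, the assignment and the overlap.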

Additional observations from a re-analysis of the deposited data

How the results depend on the processing

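Of 82 recomputed counts and percentages under 10 alternative settings, 60 stayed within 1.5 times the reported value. The count of autophagy genes with a CEBPG peak ran from 15 (gene span alone, beside 23.4% of all genes) to 22 (20 kb on either side, beside 43.7%) except under score minimums. The 5 genes gained within 20 kb were Map1lc3b, Atg3, Atg4b, Atg9a and Atg101. At a score of at least 50 it fell to 11 genes and 15 peaks, beside 17.0% of all genes, with 3 of the ATG8 and conjugation genes. At a score of at least 100 it fell to 5 genes and 7 peaks, beside 7.24%, with 1 receptor, 2 ATG8 and conjugation genes, 0 initiation genes and 2 lipid kinase genes. The ATF4 count of 1 and its overlap with CEBPG became 0 with the gene span alone, with 1 kb on either side and with a score of at least 100, since the Sqstm1 peak is upstream and scores under 100. In the span alone, 1 receptor kept a CEBPG peak. Within 20 kb, 2 genes had an ATF4 peak, Sqstm1 and Gabarapl1. All protein-coding genes had an ATF4 peak at 7.44% within 20 kb, 1.91% at scores of at least 50 and 0.42% at scores of at least 100. Assigning peaks to the nearest gene removed Atg12. The stricter overlap rules left the Sqstm1 pair in place. Without replicates and depth, a missing peak does not show that a factor was absent.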
